A study of Mus musculus with 20 samples.

Results

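Collagens are the most abundant proteins of the extracellular matrix, and the genes described here are all those of the deposited table whose mouse symbol names a collagen chain (Col, a type number, a, a chain number). The rule found 44 of 52783 genes and used no expression value. Of the 44 genes, 31 passed the filter on low counts in at least 1 comparison. The other 13 never passed it, and their highest value in any library was 50.4 normalised counts (counts divided by the library's size factor), reached by Col8a2.

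Each collagen molecule is a triple helix of 3 chains that are translated, hydroxylated and folded in the endoplasmic reticulum and then secreted. Fibrillar collagens, such as types I, III and V, assemble into fibrils and are known mainly as products of fibroblasts. Type IV forms the sheet-like network of basement membranes, type VI forms beaded filaments around cells, types VIII and X form short-chain networks, and fibril-associated collagens such as XII and XIV decorate the surface of fibrils. In tumours of the mammary gland, collagen is made by fibroblasts, pericytes and endothelial cells, and can also be made by the carcinoma cells themselves.

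66cl4 and 67NR are mammary carcinoma cell lines of the mouse 4T1 model. The former forms tumours that spread to the lung, whereas the latter forms tumours that do not. Female BALB/cJ mice received 1000000 cells of 1 line in the mammary fat pad, and cells of the primary tumours were sorted by CD45, a surface protein of leukocytes, before RNA extraction. The 4 groups are CD45- and CD45+ cells of 66cl4 tumours and of 67NR tumours, with 5 animals per tumour, 20 libraries in all, and no treatment or altered allele named in the labels. Per the study's methods the mice were young adults, and tumours were taken in about the fourth week after injection. Each tumour type is 1 cell line, so the line and the ability to spread cannot be told apart. The CD45- gate was defined by the absence of 1 marker and holds carcinoma cells together with stromal cells. Values are listed below in the order of animals 3, 4, 5, 6 and 7 for 66cl4 and 1, 4, 5, 6 and 7 for 67NR.

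Total counts were 12960000 to 28080314 per library. Groups follow the sample titles. The cell type entered for both libraries of 66cl4 animals 5 and 6 is the opposite of what their titles say, so each comparison that uses these animals was repeated without them. The CD45- title of animal 5 reads CD46 and was taken as CD45. The summed normalised counts of 6 leukocyte genes were 3297 to 4407 in 66cl4 CD45- and 919 to 2044 in 67NR CD45- libraries, against 77504 to 106966 and 55266 to 119167 in the CD45+ libraries of the same tumours, so every library fell on the side its title gives. In 66cl4 CD45- libraries this sum was mostly Itgb2 (mean 3434 ± 210.4, against 232 ± 64.2 in 67NR), and the means of the other 5 genes were lower in 66cl4, as for Ptprc, which encodes CD45 (75.2 ± 69.0 against 267 ± 136). In sorted bulk samples, fewer cells of a type and less RNA per cell cannot be told apart.

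Collagen RNA was a small share of every library and was higher in CD45- cells. In the CD45- gate it took 0.130 ± 0.0176% of the counts in 66cl4 and 0.172 ± 0.0221% in 67NR tumours (mean ± SD, n = 5 each), with libraries of 0.100 to 0.147% and 0.140 to 0.199%. In CD45+ cells the shares were 0.0124 ± 0.00501% and 0.0210 ± 0.0107%. The ranges of the tumours overlapped narrowly in CD45- and widely in CD45+ cells, whereas those of the gates did not overlap within either tumour. Levels per transcript length (TPM, reads per length scaled to 1000000 in each library) allow the chains to be ranked. The length was that of the longest transcript of each gene, and the ranks and class shares depend on this choice. In 66cl4 CD45- cells Col6a1 stood first (97.2 ± 15.2 TPM), followed by Col8a1 (51.4 ± 7.03) and Col4a1 (32.9 ± 4.82). In 67NR CD45- cells Col4a1 (73.8 ± 21.6 TPM), Col8a1 (66.1 ± 6.06) and Col6a1 (63.4 ± 15.9) lay within 1 SD of each other. In 67NR CD45+ cells Col8a1 was first (14.1 ± 7.35 TPM), and in 66cl4 CD45+ cells it was Col14a1 (11.0 ± 3.30 TPM), well above Col6a1 (3.73 ± 2.19).

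Grouped by class, fibrillar chains took 28.5 ± 5.36% of all collagen TPM in 66cl4 CD45- and 32.3 ± 5.03% in 67NR CD45- cells, with overlapping libraries. The basement membrane share was 16.6 ± 1.39% against 24.5 ± 5.88%, again with overlap (14.7 to 18.0% and 17.5 to 31.9%). The beaded filament share was 30.1 ± 4.49% against 22.1 ± 2.72%, also with overlap (22.9 to 35.0% and 18.4 to 25.3%). In CD45+ cells the fibril-associated class stood at 38.0 ± 13.6% in 66cl4 and 8.16 ± 2.35% in 67NR, with libraries of 28.5 to 61.6% and 5.41 to 10.9% that did not overlap. Col14a1 alone held most of this class in 66cl4, at a mean of 11.0 of 13.1 TPM, against 0.769 of 4.37 TPM in 67NR. Col16a1 of the same class was lower in 66cl4, at 0.239 against 2.41 TPM. Col12a1, Col20a1 and Col22a1 had low means that were higher in 66cl4, at 0.602, 0.688 and 0.381 TPM. In 67NR these means were 0.205, 0.386 and 0.342 TPM. The higher share thus lay mostly in Col14a1, and Col16a1 went the other way. The share of the short-chain network class was 7.99 ± 3.23% in 66cl4 CD45+ and 24.2 ± 4.44% in 67NR CD45+ cells.

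**Figure D1:**
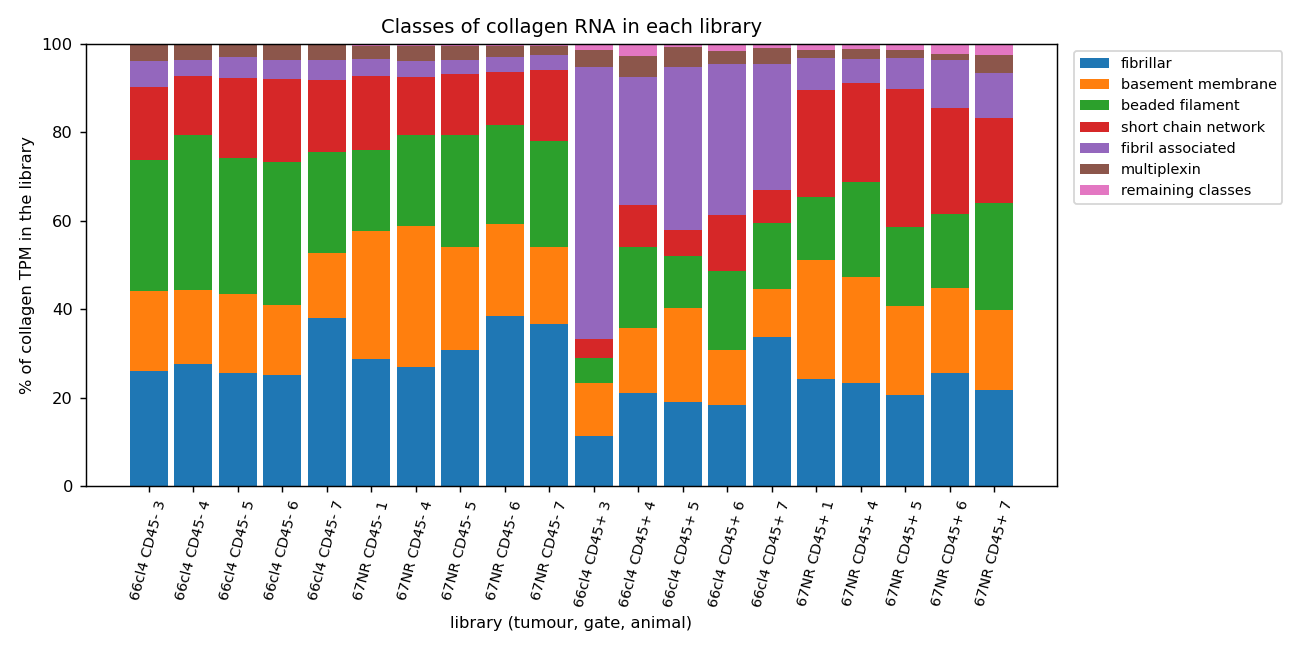
Share of each collagen class in the summed collagen TPM of each of the 20 libraries, as stacked bars in percent, with libraries named by tumour, gate and animal. The fibril-associated class takes 28.5 to 61.6% of the 66cl4 CD45+ bars and at most 10.9% of the 67NR CD45+ bars. Col14a1 makes up most of that class in the 66cl4 CD45+ libraries.

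Between the CD45- cells of the 2 tumours the collagen genes did not move in 1 direction. Col10a1, Col4a6, Col11a1, Col12a1 and Col4a5 were higher in 66cl4, and 13 genes were lower, led by Col6a5, Col17a1, Col28a1, Col20a1, Col6a3 and Col15a1. Calls come from edgeR's quasi-likelihood test with Benjamini-Hochberg adjustment over all genes tested (adjusted p under 0.05, log2 fold change beyond 1 in either direction), as do all adjusted p-values below unless another tool is named. Of the 28 collagen genes tested, 18 were called, while 32.2% of all 14844 genes tested were called. By direction, 5 were higher and 13 lower, against 13.2% and 18.9% of all genes. The median log2 fold change of the 28 genes was -0.58, and that of all genes was -0.01. The libraries of the tumours did not overlap for 22 of the 28 genes, as for 52.9% of all genes tested. Without 66cl4 animals 5 and 6 the count was again 18, with Col3a1 (log2 fold change -0.96) and Col14a1 (log2 fold change -0.97) no longer called.

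**Figure D2:**
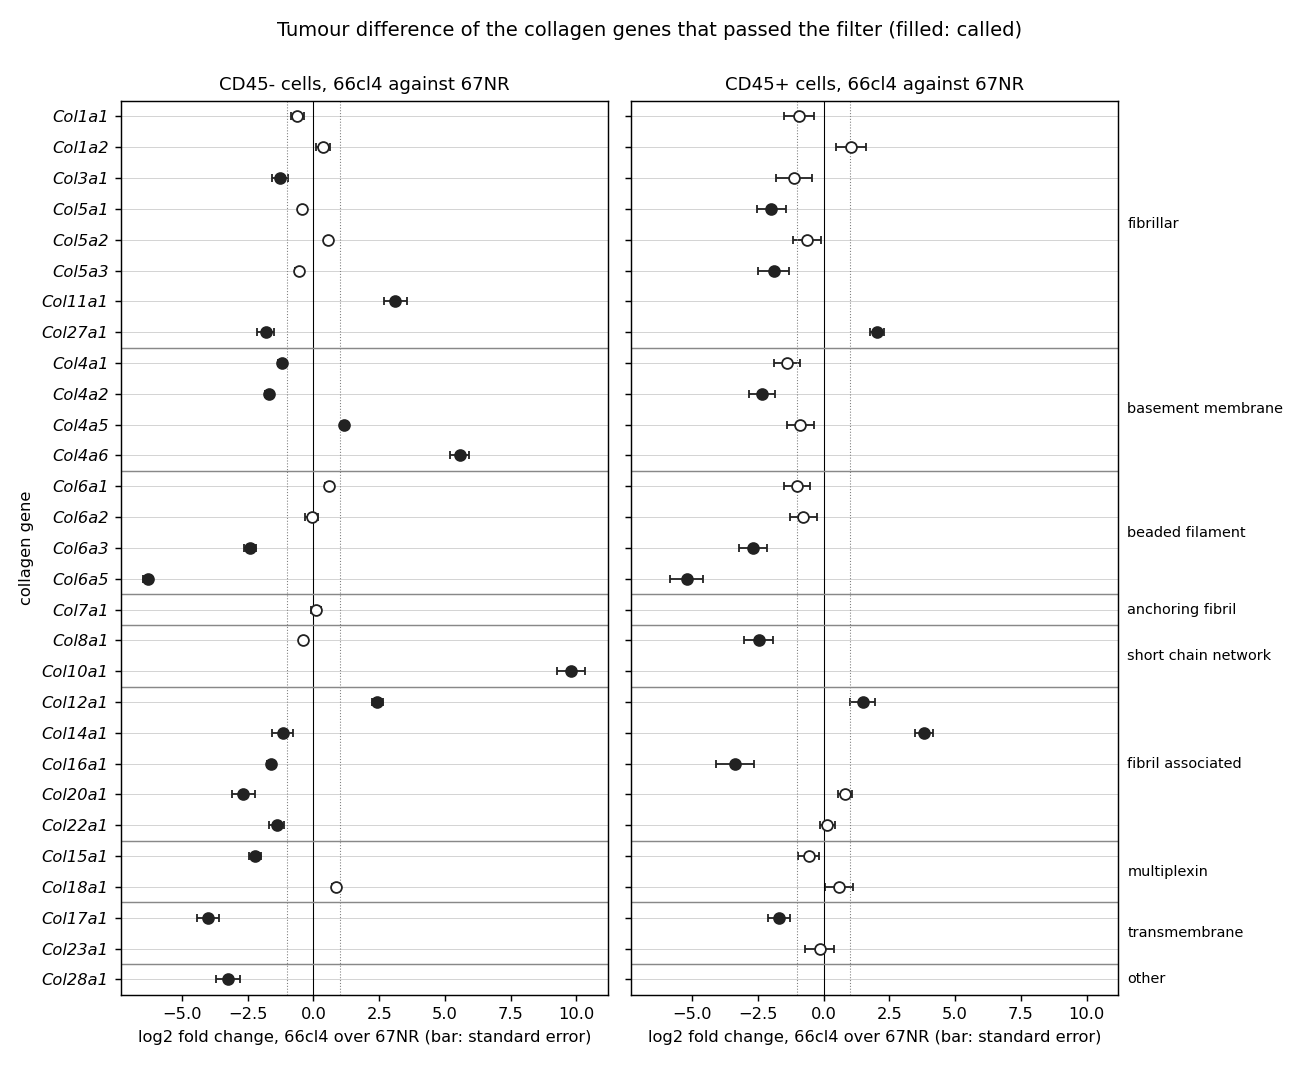
Log2 fold change of 66cl4 over 67NR (bars are standard errors) for each collagen gene that passed the filter, in CD45- cells (left) and CD45+ cells (right), ordered by class, with called genes filled. In CD45- cells the points run from -6.30 for Col6a5 to 9.80 for Col10a1, and 18 of 28 are filled, whereas 11 of 24 are filled in CD45+ cells.

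Among the fibrillar collagens, 3 of the 8 tested genes were called in CD45- cells, near the 32.2% of all genes. Col3a1, the chain of type III collagen of soft tissues, had normalised counts of 1238, 1269, 1049, 817 and 2574 in 66cl4 and 2763, 2642, 3004, 4604 and 4096 in 67NR. It was lower in 66cl4 (log2 fold change -1.27 ± 0.30 SE, adjusted p = 0.00327), with the libraries apart although 66cl4 animal 7 lay close to the lowest 67NR library. Col1a1, which gives 2 of the 3 chains of type I collagen, had 1455, 1917, 1378, 1275 and 2525 in 66cl4 and 1673, 2074, 2939.8, 3797 and 2869 in 67NR, values that overlapped (log2 fold change -0.61 ± 0.24 SE, adjusted p = 0.0413), and its difference was under the fold threshold. Col1a2, which gives the remaining chain, had 934, 1249, 1046, 816 and 1929 and 591, 707, 959.7, 1293 and 1152, also overlapping (log2 fold change 0.38 ± 0.27 SE, adjusted p = 0.235). These partner chains had fold changes of opposite sign. The ratio of Col1a1 to Col1a2 in TPM was 1.31 ± 0.118 in 66cl4 and 2.57 ± 0.196 in 67NR CD45- cells (mean ± SD, n = 5), with libraries of 1.18 to 1.41 and 2.25 to 2.76 that did not overlap. The size of this ratio depends on the transcript lengths used, whereas the order of the tumours does not, since a length is the same in all libraries.

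Type V collagen, which sits inside type I fibrils and limits their width, showed small shifts. Col5a1 had 1553, 1452, 1433, 1029 and 1584 in 66cl4 and 1599, 1929, 1991, 2229 and 1934 in 67NR CD45- libraries (log2 fold change -0.42 ± 0.12 SE, adjusted p = 0.00601). Col5a2 had 1358, 1276, 1289, 1127 and 1376 and 849, 899.5, 792, 1060.2 and 906 (log2 fold change 0.54 ± 0.09 SE, adjusted p = 1.12e-04). For both genes the tumours did not overlap, Col5a1 being lower and Col5a2 higher in 66cl4, and neither reached the fold threshold. Col11a1, a chain of the minor fibrillar type XI that is best known from cartilage, was low but higher in 66cl4 in every library, at 33.2, 19.95, 23.3, 23.4 and 19.0 against 2.63, 5.25, 2.63, 2.34 and 0 (log2 fold change 3.11 ± 0.44 SE, adjusted p = 2.06e-05). Col27a1, another minor fibrillar chain, was lower in 66cl4, at 2.65, 3.74, 2.50, 4.25 and 5.99 against 15.8, 12.0, 13.2, 13.3 and 16.4 (log2 fold change -1.82 ± 0.33 SE, adjusted p = 1.89e-04).

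In CD45- cells the basement membrane chains that passed the filter divided into pairs. Type IV collagen genes lie head to head in the genome in pairs, Col4a1 with Col4a2 and Col4a5 with Col4a6, and each pair is known to be read outward from a shared promoter region. Col4a1 and Col4a2, the chains of nearly all basement membranes, were both lower in 66cl4, and Col4a5 and Col4a6, chains of more specialised basement membranes, were both higher. The 250 bases before each annotated start are shown because the 4 genes moved by pair. They are from RefSeq on build GRCm38.p6, 5′ to 3′ on the gene's own strand, at chr8:11312827-11313076 (minus strand) for Col4a1, chr8:11312555-11312804 (plus) for Col4a2, chrX:141475169-141475418 (plus) for Col4a5 and chrX:141474077-141474326 (minus) for Col4a6. Capitals mark the GC box, searched as GGGCGG, on either strand. The CCAAT box was searched by the letters of its name and the TATA box as TATAAA, both likewise on either strand, and no match overlapped another.
Col4a1: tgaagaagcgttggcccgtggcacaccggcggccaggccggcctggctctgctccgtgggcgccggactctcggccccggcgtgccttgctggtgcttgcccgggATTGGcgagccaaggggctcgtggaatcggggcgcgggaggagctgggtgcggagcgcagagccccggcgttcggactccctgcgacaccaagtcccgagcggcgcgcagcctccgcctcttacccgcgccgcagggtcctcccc
Col4a2: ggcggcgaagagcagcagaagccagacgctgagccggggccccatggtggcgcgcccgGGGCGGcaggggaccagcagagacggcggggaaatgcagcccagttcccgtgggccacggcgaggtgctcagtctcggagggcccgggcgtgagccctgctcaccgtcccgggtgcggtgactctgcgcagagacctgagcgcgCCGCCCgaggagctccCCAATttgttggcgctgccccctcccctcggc
Col4a5: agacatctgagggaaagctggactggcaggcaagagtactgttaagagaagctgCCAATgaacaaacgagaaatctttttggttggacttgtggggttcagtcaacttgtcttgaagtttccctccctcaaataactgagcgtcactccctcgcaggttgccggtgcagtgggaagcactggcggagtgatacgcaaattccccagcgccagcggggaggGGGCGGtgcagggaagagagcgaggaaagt
Col4a6: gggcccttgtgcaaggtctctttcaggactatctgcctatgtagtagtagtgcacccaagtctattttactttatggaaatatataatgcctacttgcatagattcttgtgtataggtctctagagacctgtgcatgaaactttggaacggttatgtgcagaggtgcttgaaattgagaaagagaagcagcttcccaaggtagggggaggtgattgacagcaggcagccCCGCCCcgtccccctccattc
The annotated starts of Col4a1 and Col4a2 are 21 bases apart, and those of Col4a5 and Col4a6 1343 bases. Col4a1 and Col4a2 overlap at their annotated starts, so the window of each lies within the annotated gene of its partner. The starts of Col4a5 and Col4a6 have a gap between them. GGGCGG was found in the windows of Col4a2, Col4a5 and Col4a6 and CCAAT in those of Col4a1, Col4a2 and Col4a5, and TATAAA in none of the 4. Of 32851 windows of this length in the table, 32.7% held GGGCGG, 33.9% CCAAT and 12.4% TATAAA. Of the 38 windows given for 35 of the collagen genes, 22 held GGGCGG, 13 CCAAT and 5 TATAAA.

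In CD45- cells, Col4a1 had normalised counts of 2448, 2501, 2323, 1823 and 2188 in 66cl4 and 5517, 7139, 5079, 4946 and 3722 in 67NR (log2 fold change -1.19 ± 0.15 SE, adjusted p = 6.85e-06). Col4a2 had 717, 741, 670.1, 539.6 and 603 and 2005, 2907, 2378, 2054 and 1535 (log2 fold change -1.70 ± 0.15 SE, adjusted p = 2.65e-07). Every 66cl4 library lay below every 67NR library for both genes. Col4a5 had 1502, 1378, 1550.0, 1008 and 1349.5 in 66cl4 and 663, 557, 618, 731 and 539 in 67NR (log2 fold change 1.16 ± 0.12 SE, adjusted p = 1.34e-06). Col4a6 had 135, 122, 105, 95.6 and 114 and 3.51, 2.25, 4.39, 1.56 and 0 (log2 fold change 5.55 ± 0.35 SE, adjusted p = 6.42e-09). Both were higher in all 66cl4 libraries, and Col4a6 was near 0 in 67NR. Expressed per length, the Col4a5 level was 0.608 ± 0.0496 of the Col4a1 level in 66cl4 and 0.124 ± 0.0283 in 67NR CD45- cells, without overlap. Within the first pair, the ratio of Col4a1 to Col4a2 in TPM was 3.37 ± 0.103 in 66cl4 and 2.37 ± 0.213 in 67NR, without overlap. The remaining pair, Col4a3 and Col4a4, did not pass the filter, and Col4a4 had 6.64, 10.6, 6.66, 9.56 and 15.97 in 66cl4 and 1.75, 4.50, 2.63, 1.56 and 1.02 in 67NR CD45- libraries. In a fit without the filter Col4a4 was higher in 66cl4 (log2 fold change 2.10, adjusted p = 0.00169 in edgeR). Col4a3 was lower in the same fit (log2 fold change -3.23, adjusted p = 0.0204 in edgeR), so this pair did not move together. Its values were at most 4.50 normalised counts in these libraries, and DESeq2's Wald test did not call it (adjusted p = 0.0521).

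Type VI collagen is built from Col6a1, Col6a2 and a larger chain, which is Col6a3 or its relative Col6a4, Col6a5 or Col6a6. Col6a1 and Col6a2 differed by less than the fold threshold, and the larger chains Col6a3 and Col6a5 were lower in 66cl4 CD45- cells. Col6a1 had 4271, 5112, 4183, 3691 and 3475 in 66cl4 and 1848, 2435, 3475, 3254 and 3104 in 67NR (log2 fold change 0.59 ± 0.16 SE, adjusted p = 0.00576), the highest 67NR library lying just below the lowest 66cl4 library. Col6a2 had 682, 1127, 842, 794 and 656 and 451, 740.5, 1238, 1038 and 949, which overlapped (log2 fold change -0.07 ± 0.24 SE, adjusted p = 0.814). Col6a3 had 240.2, 276, 265, 117 and 306 against 946, 1765, 1332, 1173 and 1376, with every 66cl4 library below every 67NR library (log2 fold change -2.42 ± 0.24 SE, adjusted p = 1.92e-06). The ratio of Col6a1 to Col6a2 in TPM was 6.16 ± 0.829 in 66cl4 and 3.98 ± 0.570 in 67NR, without overlap. The Col6a3 level was 0.0238 ± 0.00824 of the Col6a1 level in TPM in 66cl4 and 0.197 ± 0.0594 in 67NR. Col6a5 showed the most negative fold change of all collagen genes tested in CD45- cells, at 15.9, 13.1, 14.2, 21.2 and 12.0 in 66cl4 against 1434, 1179, 988, 1381 and 1101 in 67NR (log2 fold change -6.30 ± 0.17 SE, adjusted p = 2.24e-12). Its annotated neighbours Col6a4 and Col6a6 were far lower in 67NR CD45- cells, at 7.03 to 12.0 and 3.001 to 6.15, and did not pass the filter there. The 250 bases before its annotated start (chr9:105960644-105960893, minus strand, GRCm38.p6) are printed as those of the gene with the largest fall, with the same letters capitalised, and they held 1 match, to GGGCGG.
Col6a5: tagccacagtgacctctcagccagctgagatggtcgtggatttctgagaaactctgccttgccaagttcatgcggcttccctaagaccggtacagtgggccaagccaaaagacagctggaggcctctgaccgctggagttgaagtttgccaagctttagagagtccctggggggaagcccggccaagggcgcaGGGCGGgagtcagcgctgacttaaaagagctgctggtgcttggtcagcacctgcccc

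Among the short-chain network collagens, Col10a1 had the largest difference of all collagen genes tested. Type X collagen is known as the product of hypertrophic chondrocytes in growth plates. Its normalised counts were 621, 328, 417, 188 and 417 in 66cl4 CD45- libraries and 0, 0.750, 0.878, 0 and 0 in 67NR CD45- libraries, the latter resting on 2 counts in all 5 libraries together. The ratio was 1157 with a counting interval of 320.3 to 9554 (log2 fold change 9.80 ± 0.54 SE, adjusted p = 3.89e-09). This interval covers the counting error in 67NR only, not the spread between animals. Col8a1, the main chain of type VIII collagen of vessel walls and stroma, was high in both tumours, at 2399.7, 2412, 2976, 2877 and 2979.6 against 3710.0, 3411, 3719, 3444 and 4126, without overlap but under the fold threshold (log2 fold change -0.40 ± 0.09 SE, adjusted p = 0.00165). The Col10a1 window, from chr10:34389731-34389980 (plus strand, GRCm38.p6), is shown because this gene separated the tumours most, and it held 1 match, TATAAA, 32 bases before the start.
Col10a1: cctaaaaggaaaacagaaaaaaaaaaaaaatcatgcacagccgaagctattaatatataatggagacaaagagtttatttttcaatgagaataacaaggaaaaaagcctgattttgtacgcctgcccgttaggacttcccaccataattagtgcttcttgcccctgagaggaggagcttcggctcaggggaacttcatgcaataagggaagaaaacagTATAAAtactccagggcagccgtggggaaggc

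All 5 fibril-associated genes tested were called in CD45- cells, 1 higher and 4 lower in 66cl4. Of all genes, 32.2% were called, 13.2% higher and 18.9% lower. The other 4 genes of the class did not pass the filter. Col12a1, which binds to type I fibrils, had 2445, 1284, 1622, 1044 and 1709.9 in 66cl4 and 223, 331, 266, 374 and 337 in 67NR, with every 66cl4 library above every 67NR library (log2 fold change 2.43 ± 0.22 SE, adjusted p = 9.12e-07). Col16a1 had 146, 233, 208, 269 and 215 against 694, 679.7, 699, 691 and 632 and was lower in each 66cl4 library (log2 fold change -1.63 ± 0.13 SE, adjusted p = 8.22e-08). Col14a1, a relative of Col12a1, was low in both, at 17.3, 17.5, 28.3, 21.2 and 67.9 and 47.4, 52.5, 50.9, 76.6 and 121, and overlapped through 66cl4 animal 7 (log2 fold change -1.16 ± 0.40 SE, adjusted p = 0.0193). Without 1 library its fold change ranged from -1.67 to -0.87, and the call was lost without 66cl4 animal 4 or 6 or 67NR animal 7. Col20a1 and Col22a1 were also lower in 66cl4, from means of 13.7 and 21.1 normalised counts in 67NR (-2.66 and -1.39 on the log2 scale). Of the multiplexins, which bind to basement membranes, Col15a1 fell from 375, 544, 406, 436 and 261 in 67NR to 77.0, 69.2, 85.7, 57.4 and 136 in 66cl4 (log2 fold change -2.22 ± 0.23 SE, adjusted p = 1.84e-06), while Col18a1, the source of endostatin, was higher by less than the fold threshold (0.85). Col17a1, the transmembrane collagen of hemidesmosomes, had 3.98, 1.25, 0.832, 3.19 and 2.99 in 66cl4 and 30.7, 38.3, 58.0, 25 and 39.9 in 67NR (log2 fold change -4.00 ± 0.41 SE, adjusted p = 8.55e-07). Col28a1 was lower in 66cl4 as well (-3.24), at 0.623 to 3.99 against 12.0 to 22.7. Col7a1, the anchoring fibril chain, had means of 66.2 and 63.2 and a difference smaller than its error (log2 fold change 0.09 ± 0.20 SE, adjusted p = 0.696).

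**Figure D3:**
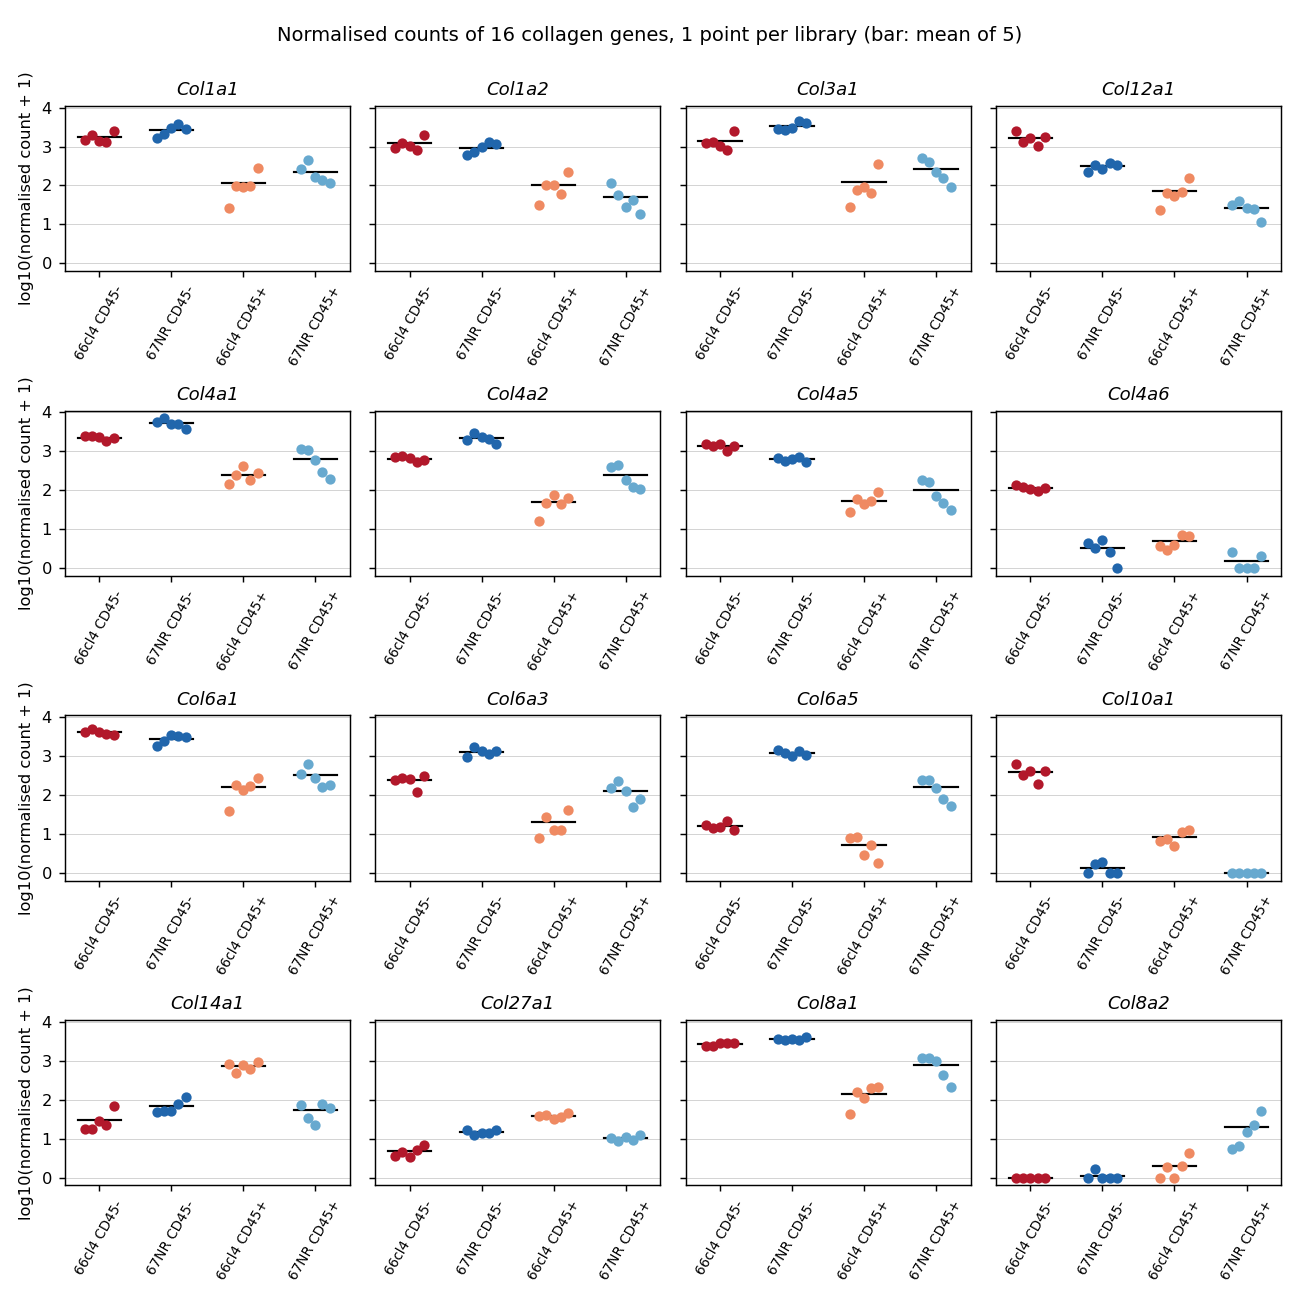
Normalised counts of 16 collagen genes as log10(count + 1), 1 point per library, with the mean of 5 libraries as a bar, in the 4 groups. Col10a1 lies at 188 to 621 in 66cl4 CD45- and at most 0.878 in 67NR CD45- libraries, and Col14a1 at 486 to 936 in 66cl4 CD45+ libraries, above every library of the other groups.

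Markers of the cell types that the CD45- gate can hold moved with the same contrast. Of all genes tested in it, 32.2% were called, 13.2% higher and 18.9% lower in 66cl4. Of 8 fibroblast genes, 6 were lower in 66cl4 and none was called higher, with summed normalised counts of 6589 to 8526 in 66cl4 against 16350.1 to 21441 in 67NR, although Pdgfra was higher (means 4441 ± 214 and 2953 ± 419) and not called. Of 6 endothelial genes, 5 were tested and 4 were lower, with sums of 519 to 1037 against 1039 to 4128. All 5 mural cell genes were lower, with sums of 377 to 1097 against 1166 to 4808. The sum of 6 epithelial genes was 6057 to 6844 in 66cl4 and 125 to 391 in 67NR, of which Krt8 and Krt18 were called higher and Epcam lower in 66cl4. The 4 Schwann cell genes summed to 18.1 to 42.9 and 80.8 to 155, and 3 of them did not pass the filter. The 4 adipocyte genes summed to at most 2.99 in either, with Cidec and Lep at 0. Of 6 leukocyte genes, Itgb2 was higher and 3 were lower in 66cl4. The part of these cell types in the collagen differences was not tested.

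In CD45+ cells, collagen levels were lower and more variable. Col14a1, Col27a1 and Col12a1 were higher in 66cl4, and Col6a5, Col16a1, Col6a3, Col8a1, Col4a2, Col5a1, Col5a3 and Col17a1 were lower. Of 24 collagen genes tested, 11 were called, while 11.8% of all 14676 genes were, and the 3 higher and 8 lower genes stand against 5.01% and 6.82%. The median log2 fold change was -0.90, against 0.01 for all genes. The libraries did not overlap for 8 genes, as for 15.1% of all genes. Without 66cl4 animals 5 and 6 the count fell to 7, and Col5a1, Col5a3, Col12a1 and Col17a1 were no longer called (adjusted p from 0.0719 to 0.106, edgeR). Both tumour comparisons called 8 genes in common, of which Col14a1 and Col27a1 had opposite directions in the gates.

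Markers moved here too, where 11.8% of all genes were called, 5.01% higher and 6.82% lower in 66cl4. Of 8 fibroblast genes, 4 were lower and 1 was higher in 66cl4 CD45+ cells, with sums of 2472 to 3729 against 4244 to 6971. Of the endothelial genes 1 of 5 tested was lower (718 to 1762 against 1069 to 2279), and of the mural genes 1 of 3 (73.7 to 142 against 127 to 245). Krt8 and Krt18 were higher, and the epithelial sum was 623 to 946 against 261 to 320.0, with Krt14 at 0 in 67NR. The Schwann cell sum was 12.5 to 36.3 against 13.4 to 65.6, and the adipocyte sum at most 8.60, with Lep at 0. No leukocyte gene of 6 was called. The part of these cells in the collagen differences was not tested.

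Col14a1 had the largest positive fold change of these genes. In CD45+ cells it had 857, 486, 784, 637 and 936 in 66cl4 and 74.9, 34.1, 21.3, 76.7 and 59.7 in 67NR (log2 fold change 3.82 ± 0.34 SE, adjusted p = 4.83e-05), with the lowest 66cl4 library far above the highest 67NR library. Col27a1 had 38.9, 40.1, 30.9, 35.8 and 46.5 against 9.36, 7.69, 10.2, 8.39 and 11.3, also without overlap (log2 fold change 2.03 ± 0.25 SE, adjusted p = 3.18e-04). Col12a1 had 22.3, 63.1, 54.0, 66.3 and 150.4 against 29.7, 39.6, 25.4, 24.0 and 10.3, which overlapped (log2 fold change 1.48 ± 0.48 SE, adjusted p = 0.0416). Of these 3 genes, Col12a1 alone was called higher in 66cl4 in both gates. Its CD45+ call held without 66cl4 animal 3 or 67NR animal 4 and was lost without any other single library (log2 fold change 1.01 to 1.58, adjusted p of at least 0.0576).

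Among the genes lower in 66cl4 CD45+ cells, Col6a5 had 6.95, 7.64, 1.93, 4.21 and 0.845 against 248, 251, 154, 80.3 and 51.4 (log2 fold change -5.20 ± 0.63 SE, adjusted p = 3.18e-04). Col16a1 had 0, 29.6, 6.75, 19.99 and 9.30 against 234, 204, 147, 77.9 and 39.1 (log2 fold change -3.37 ± 0.72 SE, adjusted p = 0.00750). Col6a3 had 6.95, 25.8, 11.6, 11.6 and 40.6 against 148, 235, 124, 47.9 and 78.2 (log2 fold change -2.67 ± 0.53 SE, adjusted p = 0.00487). None of these 3 genes overlapped between the tumours. Col8a1 had 43.1, 159, 109.9, 206 and 210.5 against 1197, 1198, 991, 429 and 218, with 66cl4 animal 7 just below 67NR animal 7 (log2 fold change -2.46 ± 0.54 SE, adjusted p = 0.00940). Col4a2 had 15.3, 46.8, 74.2, 44.2 and 64.2 against 407, 435, 178, 119 and 110.1 (log2 fold change -2.34 ± 0.51 SE, adjusted p = 0.00831). Its partner Col4a1 had 143, 241, 414, 179.9 and 276 against 1122, 1065, 592, 299.6 and 195, overlapped and missed the threshold (log2 fold change -1.39 ± 0.50 SE, adjusted p = 0.0695). It passed without 67NR animal 6 or 7 (log2 fold change -1.63 to -1.58) and with DESeq2's Wald test (-1.39, adjusted p = 0.0109). With all 20 libraries in 1 edgeR fit it passed too (-1.36, adjusted p = 0.00977). Col4a5, higher in 66cl4 in CD45- cells, was not called in CD45+ cells (log2 fold change -0.88). Its means there were 53.3 in 66cl4 and 99.0 in 67NR. Col17a1 had 11.1, 11.5, 5.79, 8.42 and 5.92 against 39.0, 38.5, 13.2, 32.4 and 15.4, without overlap (log2 fold change -1.68 ± 0.41 SE, adjusted p = 0.0127).

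The main fibrillar chains were not separated in CD45+ cells. Col1a1 had 25.04, 93.6, 92.6, 94.7 and 281 in 66cl4 and 272, 447, 159.6, 137 and 115 in 67NR (log2 fold change -0.93 ± 0.57 SE, adjusted p = 0.278). Col3a1 had 27.8, 74.5, 88.7, 64.2 and 357 and 493, 392, 214, 157 and 92.6 (log2 fold change -1.12 ± 0.67 SE, adjusted p = 0.263). In both, 66cl4 animal 7 held the highest value of its group, and without that library Col3a1 was called lower (log2 fold change -2.07, adjusted p = 0.0224). Col1a2 had 30.6, 99.4, 101, 58.9 and 226 and 114, 55.0, 27.4, 40.7 and 17.5 (log2 fold change 1.05 ± 0.59 SE, adjusted p = 0.232), so that the ratio of Col1a1 to Col1a2 in TPM was 0.997 ± 0.291 against 4.74 ± 2.13, again without overlap. Col5a1 and Col5a3 were called lower, at 22.3, 64.0, 40.5, 61.0 and 156 against 320.0, 513, 295, 152 and 109 (log2 fold change -1.99 ± 0.55 SE, adjusted p = 0.0256) and 0, 7.64, 11.6, 11.6 and 10.1 against 42.1, 42.9, 41.7, 22.8 and 9.26 (log2 fold change -1.89 ± 0.58 SE, adjusted p = 0.0349), each with overlap. The Col5a1 call was lost without 66cl4 animal 5 or 67NR animal 4 or 5 (-1.98 to -1.65), and the Col5a3 call without 66cl4 animal 4, 5 or 7 or 67NR animal 1 or 4 (-2.03 to -1.76). Col10a1 did not pass the filter, and its values were 5.56, 6.69, 3.86, 10.5 and 11.8 in 66cl4 and 0 in all 5 67NR libraries, at least 11.1-fold lower in 67NR against a floor of 3 counts over the group.

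Within each tumour, most collagen genes were higher in CD45- cells. Some genes passed the filter only through the gate where they were high, so their calls follow in part from the filter. In 66cl4 tumours these included Col6a6 (means of 1.35 in CD45- and 27.1 in CD45+ cells) and Col4a6 (114 and 3.96). In 66cl4 tumours all 27 genes tested were called and none overlapped between the gates (61.4% of all genes), 22 being higher in CD45- and 5 in CD45+ cells, where 44.4% of all genes were called (20.5% higher in CD45- and 23.9% higher in CD45+). In 67NR tumours 20 of 26 genes were called, all higher in CD45- cells, and 21 did not overlap (55.5% of all genes), against 39.8% of all genes (19.6% and 20.2%). The median log2 fold changes were 3.60 and 2.97, against 0.00 and 0.05 for all genes. Among the largest in 66cl4 were Col10a1 (log2 fold change 5.65 ± 0.38 SE, adjusted p = 5.28e-08), Col4a6 (log2 fold change 4.81 ± 0.28 SE, adjusted p = 1.59e-08), Col6a1 (log2 fold change 4.71 ± 0.40 SE, adjusted p = 5.39e-07) and Col4a5 (log2 fold change 4.66 ± 0.27 SE, adjusted p = 1.60e-08). In 67NR they were Col1a2 (log2 fold change 4.24 ± 0.45 SE, adjusted p = 8.61e-06), Col6a2 (log2 fold change 3.73 ± 0.35 SE, adjusted p = 3.22e-06) and Col3a1 (log2 fold change 3.66 ± 0.43 SE, adjusted p = 1.98e-05). Without 66cl4 animals 5 and 6, 25 genes were called in 66cl4, Col6a5 (log2 fold change 1.49, adjusted p = 0.0579) and Col6a6 being lost.

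The 5 genes higher in 66cl4 CD45+ cells were Col14a1 (-4.58 for CD45- over CD45+ on the log2 scale), Col6a6 (-4.11), Col20a1 (-4.05), Col27a1 (-3.26) and Col22a1 (-2.11), all with adjusted p of at most 5.74e-05 in edgeR. Each was higher in CD45+ cells in all 5 animals. Of the 4 that were tested in 67NR tumours, none was called there, with log2 fold changes of 0.40, -0.59, 0.58 and -0.60 for Col14a1, Col20a1, Col27a1 and Col22a1. Still, Col20a1 and Col22a1 were higher in CD45+ cells in all 5 67NR animals. Their CD45+ levels by animal were 110.7 to 239.7% and 110.1 to 168.8% of the CD45- level. Col6a6 had 15.3, 9.56, 36.6, 40.0 and 33.8 in 66cl4 CD45+ and 0, 0, 3.05, 1.198 and 1.03 in 67NR CD45+ libraries, a comparison in which it did not pass the filter (without the filter, log2 fold change 4.43, adjusted p = 8.96e-05 in edgeR). Col22a1 had 40.3, 51.6, 27.96, 31.6 and 22.8 and 20.3, 29.7, 35.6, 31.2 and 42.2, which overlapped.

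The CD45+ mean as a percentage of the CD45- mean describes how far a gene followed the gate. Over genes with a mean of at least 10 normalised counts across both gates of a tumour, collagen genes fell into a low and a high set in 66cl4. Of 27 such genes in 66cl4, 21 lay between 1.95% (Col10a1) and 29.1% (Col15a1), and 6 lay above 100%, from 441% (Col22a1) over Col6a4 (547%), Col27a1 (1005%), Col20a1 (1698%) and Col6a6 (2008%) to 2432% (Col14a1). Of these 6, only Col14a1 had a CD45- mean above 10, and the others were counted through their CD45+ level. The CD45- means of Col6a6, Col20a1, Col27a1 and Col6a4 were 1.35, 2.11, 3.83 and 4.31, so their percentages are imprecise. Col6a4 ran from 21.0% to 1090% by animal. Genes under the cut lay on both sides of 100%, as did Col23a1 (899%) and Col6a5 (28.2%). In 67NR, 19 of 25 genes lay between 5.41% (Col1a2) and 21.9% (Col8a1), and 3 lay above 100%, Col23a1 (113%), Col20a1 (150.2%) and Col22a1 (150.4%). Over the 22 genes that reached this level in both tumours the medians were 7.75% and 12.1%. Of the markers, Pdgfra stood at 4.03% and Dcn at 5.59% in 66cl4, and at 15.4% and 9.29% in 67NR, while the medians of the 8 fibroblast genes were 77.4% and 21.0%. Thy1, Pi16, Pdpn and Fap of that list exceeded 100% in 66cl4, and Thy1, which is also a T cell gene in mice, did so in 67NR. Of 4 epithelial genes at this level, Krt8 and Krt18 stood at 5.53% and 5.09% in 66cl4, and Epcam and Cdh1 at 142% and 1893% (list medians 73.9% and 58.8% in 66cl4 and 67NR). The medians of the 5 mural genes were 20.4% and 6.68%. Those of the endothelial genes at this level were 403% over 5 genes in 66cl4 and 59.5% over 6 genes in 67NR. Over the 5 that reached it in both tumours the 67NR median was 106%. In 66cl4 Pecam1, Vwf and Kdr exceeded 100%, while Cdh5 and Emcn stood at 20.1% and 20.9%. Whether collagen RNA in the CD45+ gate came from CD45- cells was not tested.

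**Figure D4:**
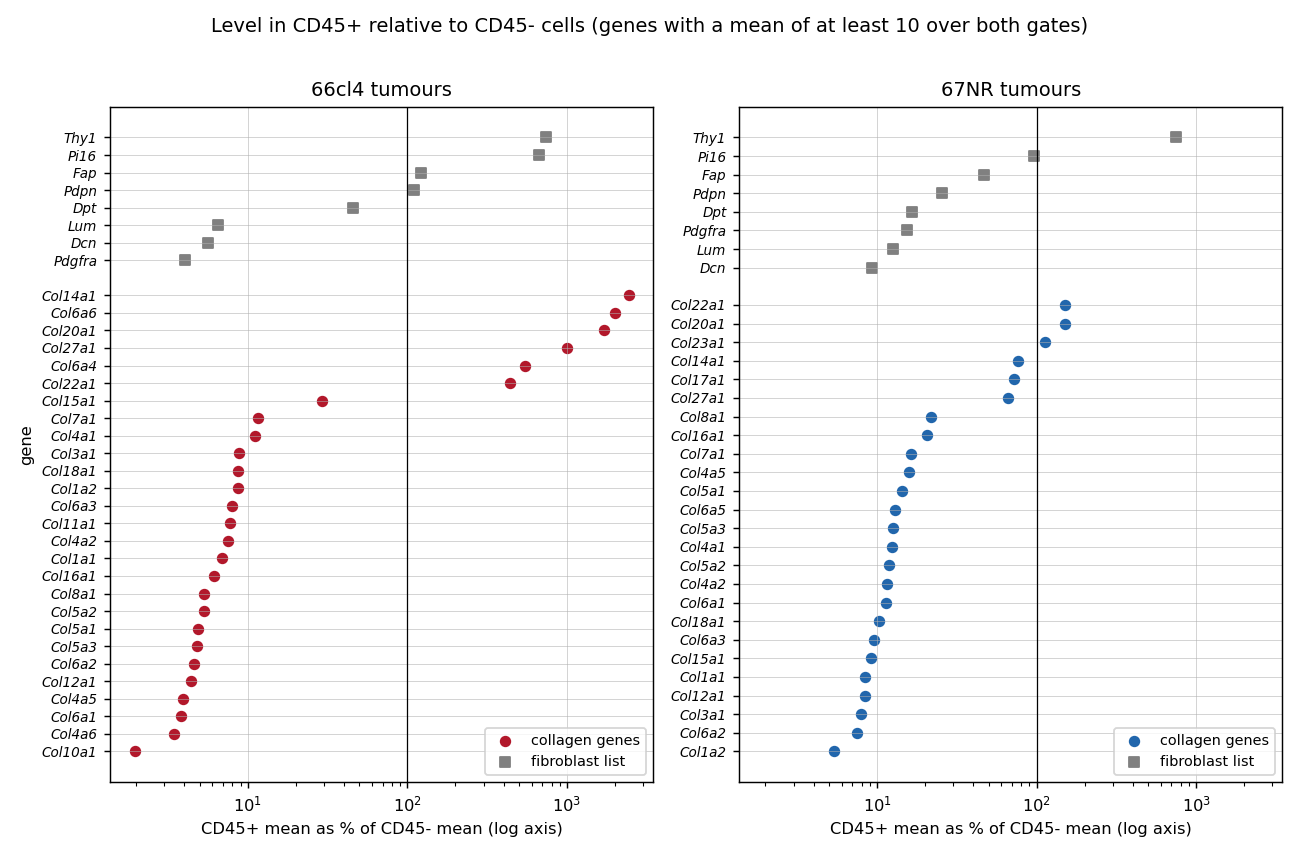
CD45+ mean as a percentage of the CD45- mean (log axis) for collagen genes (circles) and fibroblast genes (squares) with a mean of at least 10 normalised counts over both gates, in 66cl4 (left) and 67NR tumours (right). Collagen genes run from 1.95% (Col10a1) to 2432% (Col14a1) in 66cl4 and from 5.41% (Col1a2) to 150.4% (Col22a1) in 67NR tumours.

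The tumour difference itself depended on the gate for part of the genes. An interaction over the 20 libraries, the log2 fold change of 66cl4 over 67NR in CD45- minus that in CD45+ cells, was called at an adjusted p under 0.05 for 13 of 30 genes tested, close to the 43.1% of all 16453 genes. It was negative for 8 genes, led by Col14a1 (-4.99 ± 0.55 SE, adjusted p = 7.41e-07), Col6a4 (-4.06 ± 1.02 SE, adjusted p = 0.00299), Col27a1 (-3.86 ± 0.36 SE, adjusted p = 4.47e-08) and Col20a1 (-3.47 ± 0.46 SE, adjusted p = 4.60e-06). It was positive for Col8a1 (2.03 ± 0.53 SE, adjusted p = 0.00481), Col4a5 (1.98 ± 0.51 SE, adjusted p = 0.00404), Col16a1, Col6a1 and Col5a1. For Col6a5, Col6a3 and Col4a2, which were lower in 66cl4 in both gates, the interaction was not called (-1.10 ± 0.71 SE, adjusted p = 0.236, 0.20 ± 0.57 SE, adjusted p = 0.792 and 0.59 ± 0.51 SE, adjusted p = 0.364). Without 66cl4 animals 5 and 6, 11 genes were called, of which 2 were positive, and Col16a1, Col6a1 and Col5a1 were lost (1.52, 1.54 and 1.36). Without the 67NR CD45+ library of animal 4 also 2 were positive, and Col16a1 was lost without any of 7 other single libraries (1.43 to 1.71). The Col6a4 value rests on 66cl4 CD45+ libraries of 1.39, 60.2, 2.89, 34.7 and 18.6, which spread widely, against 1.02 to 4.79 in 67NR CD45+ libraries.

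Some of the 13 genes that never passed the filter had a pattern at low counts. Col8a2, the second chain of type VIII collagen, had 4.68, 5.50, 14.2, 21.6 and 50.4 in 67NR CD45+ and 0, 0.956, 0, 1.05 and 3.38 in 66cl4 CD45+ libraries, while all CD45- libraries together held 1 count. In a fit without the filter it was lower in 66cl4 CD45+ cells (log2 fold change -3.91, adjusted p = 0.00296 in edgeR) and lower in CD45- than in CD45+ cells of 67NR tumours (-6.06, adjusted p = 3.48e-05). Its partner Col8a1 was higher in CD45- cells in both tumours (4.23 and 2.18). Col11a2 stayed at or below 2.00 in 66cl4 CD45- libraries, while the other 3 groups overlapped, at 6.95 to 14.7 in 66cl4 CD45+, 3.07 to 9.66 in 67NR CD45- and 2.20 to 14.4 in 67NR CD45+ libraries. Col9a3 stayed at or below 17.2 and Col2a1, Col4a3, Col9a1, Col9a2, Col13a1, Col19a1, Col24a1, Col25a1 and Col26a1 at or below 7.99 normalised counts in every library.

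Genes that make and process collagen moved in both directions. Of 33 such genes, 29 were tested in CD45- cells and 12 called, 5 higher and 7 lower in 66cl4, where 32.2% of all genes were called. Crtap, part of the prolyl 3-hydroxylase complex, rose most, from 71.5 ± 19.3 in 67NR to 604 ± 26.6 in 66cl4 (log2 fold change 3.11 ± 0.16 SE, adjusted p = 7.36e-10). P4ha2, a subunit of prolyl 4-hydroxylase, was also higher (log2 fold change 1.25 ± 0.14 SE, adjusted p = 1.84e-06), as were Pcolce, an enhancer of procollagen cleavage (log2 fold change 1.19 ± 0.15 SE, adjusted p = 6.50e-06), and the lysyl oxidase relative Loxl4 (log2 fold change 1.138 ± 0.12 SE, adjusted p = 1.28e-06). Lower in 66cl4 were Adamts14, a procollagen N-proteinase, at 107 ± 18.7 against 1197 ± 199 (log2 fold change -3.45 ± 0.15 SE, adjusted p = 1.35e-10), Pcolce2 (log2 fold change -2.94 ± 0.14 SE, adjusted p = 3.74e-10), P4ha3 (log2 fold change -2.92 ± 0.34 SE, adjusted p = 3.73e-06) and Loxl2 (log2 fold change -1.49 ± 0.20 SE, adjusted p = 1.98e-05). So Pcolce and Pcolce2, P4ha2 and P4ha3, and Loxl4 and Loxl2 differed in direction within each pair of relatives. In CD45+ cells 25 were tested and 9 called (11.8% of all genes), of which P4ha1 was higher (log2 fold change 1.05 ± 0.19 SE, adjusted p = 0.00265). The 8 lower genes included Pcolce2 (log2 fold change -4.30 ± 0.64 SE, adjusted p = 0.00124), Adamts14 (log2 fold change -2.66 ± 0.27 SE, adjusted p = 1.08e-04), the collagen chaperone Serpinh1 (log2 fold change -2.45 ± 0.51 SE, adjusted p = 0.00712) and Loxl1 (log2 fold change -2.01 ± 0.46 SE, adjusted p = 0.00990). Without 66cl4 animals 5 and 6 the calls of P4ha1 and Loxl1 were lost (log2 fold change 0.97 and log2 fold change -2.02), and that of P4ha1 also without 66cl4 animal 3 or 5 or 67NR animal 5 or 7 (0.94 to 0.99).

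Of 11 collagen receptor genes, 8 were tested in each gate. In CD45- cells 5 were called (32.2% of all genes). Itga10, an integrin subunit that binds collagen in cartilage, was higher in 66cl4, with means of 2613 ± 528 against 206 ± 21.8 (log2 fold change 3.70 ± 0.14 SE, adjusted p = 5.57e-11), and Itga1 was higher too (log2 fold change 1.63 ± 0.32 SE, adjusted p = 0.00101). Itga2 (log2 fold change -3.06 ± 0.57 SE, adjusted p = 3.04e-04), the leukocyte receptor Lair1 (log2 fold change -1.79 ± 0.49 SE, adjusted p = 0.00519) and the receptor tyrosine kinase Ddr2 (log2 fold change -1.10 ± 0.09 SE, adjusted p = 6.96e-08) were lower. In CD45+ cells 4 were called (11.8% of all genes). Itga10 was higher in 66cl4 (log2 fold change 1.57 ± 0.47 SE, adjusted p = 0.0338), and Ddr2 (log2 fold change -2.97 ± 0.42 SE, adjusted p = 9.43e-04), Itga2 (log2 fold change -2.31 ± 0.46 SE, adjusted p = 0.00511) and Mrc2 (log2 fold change -2.23 ± 0.54 SE, adjusted p = 0.0148), the endocytic collagen receptor, were lower. Without 66cl4 animals 5 and 6 Itga10 and Mrc2 were no longer called (log2 fold change 1.72 and log2 fold change -2.18), and Itga10 was also lost without 66cl4 animal 4, 6 or 7 or 67NR animal 5, 6 or 7 (1.22 to 1.59). Ddr2 was high in CD45- cells of both tumours, with means of 3120.2 ± 118 in 66cl4 and 6832 ± 734 in 67NR.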

How the data were processed

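Members and gene lists were chosen with earlier results of these data known. Per the labels and the study's methods, libraries were made with the SENSE mRNA-seq kit, reads were trimmed and quantified with Salmon 1.3.0, and the authors deposited estimated counts per Ensembl mouse gene, not normalised. The sources name a human transcriptome, so the mouse build is not given in the sources used here, nor is the use of strand in counting. The counts were rounded to whole numbers. Symbols were found for 51492 of 52783 genes, and longest transcript lengths for TPM for all but 1291, which held 2.58% of the counts. Total counts were 12960000 to 28080314, and a floor of 3 counts is 1.07e-05 to 2.31e-05% of a library, for counting error only.

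Each comparison of 5 against 5 libraries was fitted on the whole table with edgeR 4.0.16 (quasi-likelihood, TMM, a minimum count of 10 in filterByExpr, R 4.3.3). Levels are counts divided by DESeq2 1.42.0 size factors. SE is the absolute log2 fold change of the fit, without added counts, over the square root of F. The printed fold changes are edgeR's, for which a small count is added, so the fold change and its SE can differ in basis where a group is near 0. Replicates are animals. Both gates of an animal carry its number, so the numbers pair the gates, although their deviations from the group means correlated weakly (-0.00326 to 0.324 over the 10 animals), while between tumours animals share a number only. All of the major chains, and the 5 called genes of largest fold change in each direction with a mean of at least 10, are given by library, with the 4 largest in each direction among processing and receptor genes. Alternatives were DESeq2's Wald test and size factors, no filter, all 20 libraries in 1 fit, a test against a log2 fold change of 1, an animal block, and omission of 66cl4 animals 5 and 6 or of single libraries. Scripts were tested on simulated data.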

Additional observations from a re-analysis of the deposited data

Results flagged for a closer look

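In groups of 5 libraries, a value was singled out where its gap to the nearest library exceeded 0.71 of the group's range (Dixon's test at 95%). This held for 6 of 92 groups of collagen genes, where chance gives about 4.6. Of the 6 values, 4 came from 66cl4 animal 7. In its CD45+ library Col1a1 stood at 281 normalised counts, against 25.04 to 94.7 in the other 66cl4 CD45+ libraries, and Col3a1 at 357, against 27.8 to 88.7. In its CD45- library Col3a1 stood at 2574, against 817 to 1269, and Col14a1 at 67.9, against 17.3 to 28.3. Col5a1 was low in the CD45- library of 66cl4 animal 6, at 1029 against 1433 to 1584. Col16a1 was low in the CD45- library of 67NR animal 7, at 632 against 679.7 to 699.

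The tumour difference in CD45- cells differed from that in CD45+ cells for 13 genes by edgeR's interaction test (log2, adjusted p over all genes), 13 of 30 tested, close to the 43.1% of all genes. It was more negative in CD45- cells for Col14a1 (-4.99 ± 0.55 SE, adjusted p = 7.41e-07), Col6a4 (-4.06 ± 1.02 SE, adjusted p = 0.00299), Col27a1 (-3.86 ± 0.36 SE, adjusted p = 4.47e-08), Col20a1 (-3.47 ± 0.46 SE, adjusted p = 4.60e-06), Col23a1 (-2.87 ± 0.87 SE, adjusted p = 0.00954), Col17a1 (-2.31 ± 0.60 SE, adjusted p = 0.00345), Col15a1 (-1.67 ± 0.46 SE, adjusted p = 0.00616) and Col22a1 (-1.52 ± 0.39 SE, adjusted p = 0.00346). It was more positive for Col8a1 (2.03 ± 0.53 SE, adjusted p = 0.00481), Col4a5 (1.98 ± 0.51 SE, adjusted p = 0.00404), Col16a1 (1.70 ± 0.64 SE, adjusted p = 0.0370), Col6a1 (1.57 ± 0.52 SE, adjusted p = 0.0212) and Col5a1 (1.53 ± 0.54 SE, adjusted p = 0.0285). The calls of Col16a1, Col6a1 and Col5a1 were lost without 66cl4 animals 5 and 6 and without the 67NR CD45+ library of animal 4 (log2 1.52, 1.54 and 1.36 without the former, 1.51, 1.17 and 1.18 without the latter).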

How the results depend on the processing

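In CD45- cells the 18 calls became 24 with DESeq2, 26 without a filter, 19 with all 20 libraries in 1 fit, 13 against a log2 fold change of 1 and 18 with the animal block, and 17 to 19 without single libraries. In CD45+ cells the 11 calls became 16 with DESeq2, 13 without a filter, 16 with all 20 libraries in 1 fit, 5 against a log2 fold change of 1, 7 with the animal block, 7 without 66cl4 animals 5 and 6, and 8 to 12 without single libraries. In the block, which between tumours rests on a shared number only, Col5a1, Col5a3, Col8a1, Col12a1, Serpinh1, Loxl1 and Mrc2 were not called in CD45+ cells and Lair1 was not called in CD45- cells. Between the gates the block removed no collagen call of the main fit, and calls gained there were not examined by gene. Over the alternatives, 25 to 33 genes were called between the gates of 66cl4 and 20 to 25 between those of 67NR, and 27 and 20 when any single library was left out. The interaction count was 17 with DESeq2, 12 without a filter, 13 with the block and 12 to 17 without single libraries. Of the fold changes, Col5a2 in CD45+ cells turned from -0.62 to 0.0267 with the block, and Col6a2 in CD45- cells ranged from -0.23 to 0.0822 without single libraries, neither passing the threshold. The causes were not tested. In TPM the collagen shares were 0.0387%, 0.0469%, 0.00372% and 0.00596% in 66cl4 CD45-, 67NR CD45-, 66cl4 CD45+ and 67NR CD45+ cells, since TPM divides by length. Without single libraries the shares of counts were 0.126 to 0.137%, 0.166 to 0.180%, 0.0102 to 0.0135% and 0.0175 to 0.0239%. With the median transcript length the ratio of Col1a1 to Col1a2 was 6.92 in 66cl4 and 13.6 in 67NR CD45- cells, and it was 1.29 to 1.35 and 2.52 to 2.65 without single libraries. Depth limits the genes at a few counts, such as Col8a2, Col4a4 and Col6a4.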

Other observations

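Several collagen genes at low counts had values mainly in a single group of a comparison. The intervals of the ratios cover the counting error of the lower group only, not the spread between animals. Col8a2 in 67NR stood at a mean of 19.3 normalised counts in CD45+ libraries against 1 count in all CD45- libraries together, a ratio of 113 with a counting interval of 20.3 to 4469. Col4a6 in CD45+ cells had 1.91 to 6.31 in 66cl4 and 2 counts in all 67NR libraries together, a ratio of 8.60 with an interval of 2.38 to 71.0. Col13a1, a transmembrane collagen, had 5.26, 3.001, 0, 7.03 and 1.02 in 67NR CD45- libraries and 1 count in all 66cl4 CD45- libraries, a ratio of 18.0 with an interval of 3.22 to 709. Col4a3 had 4.39, 4.50, 3.51, 0.781 and 0 in 67NR CD45- libraries against 1 count in 66cl4, while its head-to-head partner Col4a4 had its higher values in 66cl4. Neighbouring genes also differed in Col3a1 and Col5a2, which lie side by side on chromosome 1, with log2 fold changes of -1.27 and 0.54 in CD45- cells.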
